A study of Mus musculus with 6 samples.

Results

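The 9 genes followed here in mouse liver mark bile duct cells or encode the simple epithelial keratins. They are Sox9, Spp1, Epcam, Krt7, Krt19, Krt8, Krt18, Cldn7 and Cd24a, chosen by symbol from a list of bile duct markers and hepatocyte keratins, and all 9 of 9 were found among the 54532 genes of each deposited table. Whole liver RNA was sequenced from 6 male C57BL/6J mice aged 8 weeks: 3 whose fathers had been given nicotine (paternal nicotine) and 3 whose fathers had been given saline (paternal saline). The offspring carry no treatment in the labels, and the sources used here state neither the dose, route and duration of the fathers' treatment nor how many fathers and litters were used. Its title concerns hepatic fibrosis after nicotine exposure of the father, and the comparison here is paternal nicotine against paternal saline. The p-values rest on the spread among these 6 mice alone.

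Bile ducts are lined by cholangiocytes, epithelial cells that share a common progenitor with hepatocytes and are marked by the transcription factor SOX9 and the keratins 7 and 19. Keratins are filament proteins that work in obligate pairs of a type II and a type I chain. Hepatocytes build their filaments from keratin 8 (type II) and keratin 18 (type I), while duct cells add keratin 7 (type II) and keratin 19 (type I) to that pair. In damaged liver, duct cells may multiply (ductular reaction), hepatocytes may switch on duct genes such as Sox9 and Spp1, and Krt8 and Krt18 are known as stress-responsive transcripts.

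Sox9, Krt18 and Spp1 rose in paternal nicotine livers, and none of the 9 genes fell. Sox9 averaged 7.62 ± 1.91 RPKM in paternal nicotine and 1.98 ± 0.631 RPKM in paternal saline, Krt18 averaged 203 ± 19.5 and 99.2 ± 19.0 RPKM, and Spp1 averaged 9.54 ± 1.205 and 5.60 ± 0.915 RPKM (SD, n = 3 per group; RPKM is a read count scaled by gene length and by the library's total reads). Krt8, Krt19, Epcam and Cd24a did not pass the test. Krt7 and Cldn7 lay below the mean of 1 RPKM needed for testing. The test was limma on log2(RPKM + 1), run over the 8773 genes whose mean reached 1 RPKM; a gene passed at a Benjamini-Hochberg adjusted p under 0.05. It called 3 of the 7 tested members higher and 0 lower, against 3.89% of all tested genes called higher, 5.39% called lower and 9.28% called in either direction. The median log2 fold change was 0.62 over the 7 tested members and -0.02 over all tested genes. The members were chosen with earlier results of these data known, so these contrasts with all tested genes are descriptions. All 7 had a mean of at least 1 RPKM in each group, so none was tested on the strength of one group alone. The count of 3 was lost entirely when paternal nicotine replicate 1, paternal nicotine replicate 2 or paternal saline replicate 1 was left out (0 of 7 called in each case), and 2 were called when any other single library was left out.

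**Figure D1:**
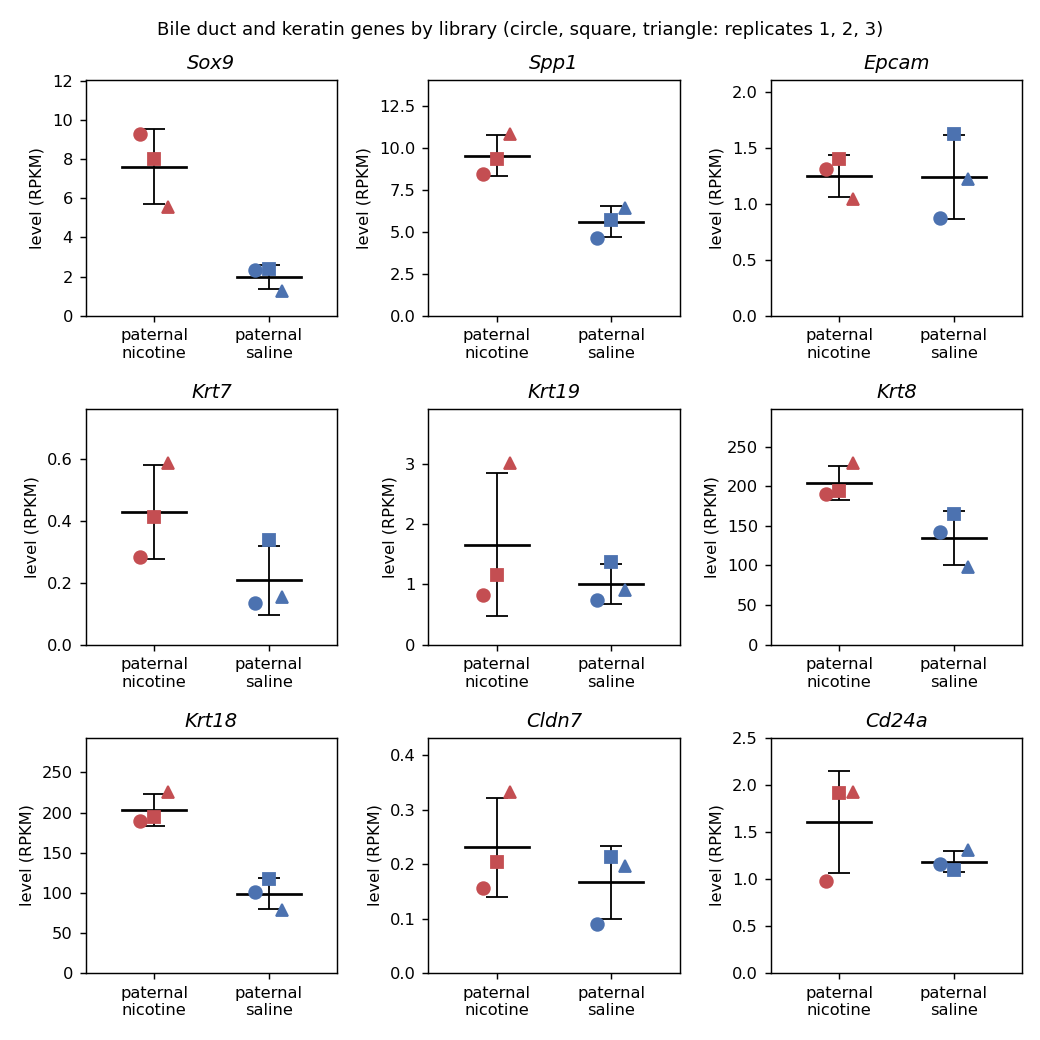
Level in RPKM (vertical axis, from 0) of each of the 9 genes in paternal nicotine (red, left) and paternal saline (blue, right) livers; symbols are replicates, horizontal bars are means and error bars are SD (n = 3 per group). The groups do not overlap for Sox9, Spp1, Krt8 and Krt18, and they overlap for Epcam, Krt7, Krt19, Cldn7 and Cd24a.

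**Figure D2:**
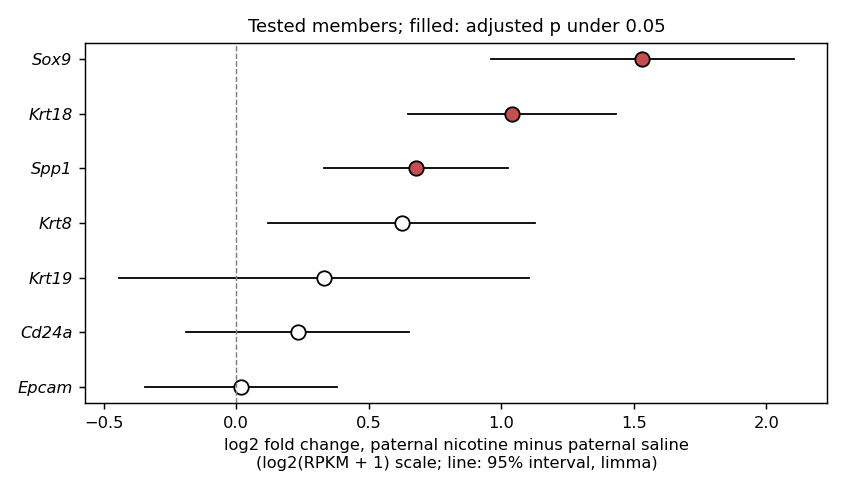
Difference of log2(RPKM + 1) between paternal nicotine and paternal saline (horizontal axis) for the 7 tested members, with 95% intervals from limma as lines. Filled points passed an adjusted p of 0.05: Sox9 at 1.53, Krt18 at 1.04 and Spp1 at 0.68; the interval of Krt8 also lies above 0 but its adjusted p was 0.124.

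The totals behind the values were 62072258 to 70089315 reads in paternal nicotine and 61837267 to 66928579 reads in paternal saline. Albumin and 8 other hepatocyte markers summed to 20400 to 21630 RPKM in paternal nicotine and 35500 to 42050 RPKM in paternal saline. Albumin alone, the largest part, was at 11100 to 12490 RPKM in paternal nicotine and 19910 to 28630 RPKM in paternal saline. Of the others, Apoa1, Tat and Hnf4a overlapped between the groups. The rest were lower without overlap, as were 19.2% of all tested genes. Paternal nicotine replicate 2 stood apart by pancreatic acinar enzymes: the 27 listed reached a sum of 5239 RPKM there, where the other 5 libraries had 3.24 to 5.47 RPKM, and Prss1 and Cela3a were at 0 in every library. Pancreas also holds SOX9- and keratin-positive duct cells. In that library none of the 9 members was the highest of the 6 libraries, and its Sox9 and Krt18 levels lay between those of the other paternal nicotine livers; the part of pancreatic tissue in the members' levels was not tested. Kupffer cell and macrophage markers were highest in paternal nicotine replicate 3, with a sum over 15 genes of 1395 RPKM, where the other 5 libraries had 446.5 to 867.7 RPKM. In bulk tissue fewer cells of a type and less RNA per cell cannot be told apart.

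Sox9 (ENSMUSG00000000567, GRCm38 chromosome 11, 112782224 to 112787760, plus strand) encodes the transcription factor that specifies duct cells. It was at 9.28, 8.04 and 5.53 RPKM in paternal nicotine replicates 1 to 3 and at 2.32, 2.37 and 1.25 RPKM in paternal saline replicates 1 to 3. The groups were far apart, and these levels stood on 1604 to 2384 reads in paternal nicotine and 332 to 656 reads in paternal saline. Its difference on the log2 scale was 1.53 (SE 0.23, adjusted p = 0.017 in limma), the largest of the 7 tested members. In each group the third replicate had the lowest Sox9, and it was also the library with the most macrophage marker RNA in its group. It likewise had the highest sums of stellate, endothelial, T and NK cell and erythroid markers in its group. The part of these cell types in the Sox9 values was not tested. Sox9 did not pass without paternal nicotine replicate 1 (adjusted p = 0.0561), paternal nicotine replicate 2 (adjusted p = 0.0737) or paternal saline replicate 1 (adjusted p = 0.0575), with log2 fold changes of 1.39, 1.48 and 1.62; over the 6 single omissions the adjusted p ran between 0.0253 and 0.0737.

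Spp1 (ENSMUSG00000029304, chromosome 5, 104435118 to 104441050, plus strand) encodes osteopontin, a secreted matrix glycoprotein made by duct cells and also by activated macrophages and other cells. It was at 8.44, 9.37 and 10.8 RPKM in paternal nicotine replicates 1 to 3 and at 4.62, 5.73 and 6.44 RPKM in paternal saline replicates 1 to 3. The groups did not overlap, and Spp1 was higher by 0.68 in log2 units, with an SE of 0.14 (adjusted p = 0.0396 in limma). It did not pass when any single library was left out, with adjusted p between 0.0602 and 0.123. Within each group the order of the libraries by Spp1 was the order by macrophage markers, which summed to 451, 802 and 1395 RPKM in paternal nicotine and 446.5, 507 and 867.7 RPKM in paternal saline. Sums of 10 stellate cell, 9 endothelial and 8 T and NK cell markers had the same order in both groups. The order is thus not particular to macrophages. All 15 macrophage markers had reads, 13 of them were tested, and none of the 13 passed (in limma 2 had an unadjusted p under 0.05). Over all tested genes 9.28% were called in either direction. At similar macrophage sums, paternal nicotine replicate 1 (451 RPKM) had 8.44 RPKM of Spp1 and paternal saline replicate 1 (446.5 RPKM) had 4.62 RPKM. The sum does not describe each marker. In the same libraries Marco was at 22.2 and 4.55 RPKM and Clec4f at 36.9 and 51.9 RPKM, both picked after their values had been seen. The part of macrophages, or of stellate, endothelial or T and NK cells, in the Spp1 difference was not tested. Spp1 shares 309 exonic bases with Gm42793 on the same strand, which reached at most 0.137 RPKM.

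**Figure D3:**
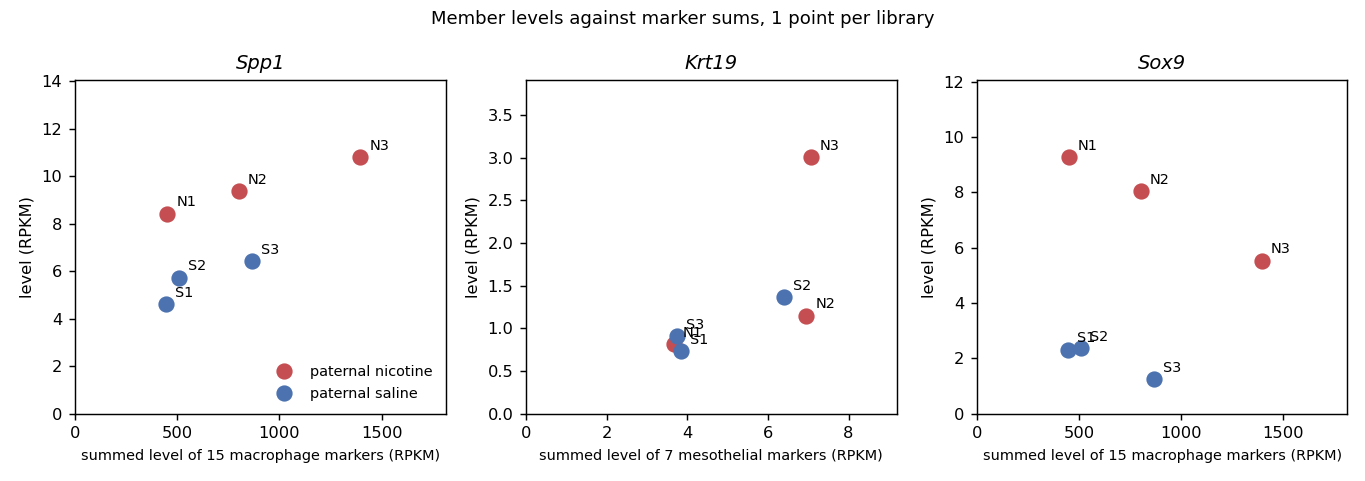
Level of Spp1, Krt19 and Sox9 (vertical axes, RPKM) against the summed level of macrophage or mesothelial markers (horizontal axes, RPKM), 1 point per library, with paternal nicotine (N) in red and paternal saline (S) in blue. Spp1 is ordered like the macrophage sum within each group, Krt19 is highest in paternal nicotine replicate 3 at 3.01 RPKM, and Sox9 is lowest in the third replicate of each group. Sums of stellate, endothelial, and T and NK cell markers, not drawn, have the same order as the macrophage sum.

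The surface and junction genes were low and overlapped between the groups. Epcam, the epithelial cell adhesion molecule of duct cells, was at 1.31, 1.41 and 1.04 RPKM in paternal nicotine and at 0.872, 1.63 and 1.22 RPKM in paternal saline. Its log2 fold change was 0.02 with a 95% interval of -0.34 to 0.38 (limma adjusted p = 0.952), and its sign turned under quantile normalization. Epcam is the duct marker of the list with the closest group means, 1.253 ± 0.189 RPKM in paternal nicotine and 1.240 ± 0.377 RPKM in paternal saline. Cd24a, which encodes a small glycoprotein of duct and progenitor cells that is also carried by B cells and neutrophils, was at 0.982, 1.92 and 1.93 RPKM in paternal nicotine and at 1.16, 1.10 and 1.31 RPKM in paternal saline. Paternal nicotine replicates 2 and 3 lay above all saline livers and replicate 1 lay below them, and the log2 fold change was 0.23 with an interval of -0.19 to 0.65 (limma adjusted p = 0.45). The 13 neutrophil markers summed to 27.8, 88.6 and 62.7 RPKM in paternal nicotine and to 6.36, 7.67 and 6.60 RPKM in paternal saline. Of the 4 tested S100a8 and Mmp9 rose, beside 3.89% of all tested genes called higher. S100a8 was at 18.3, 36.0 and 37.1 RPKM in paternal nicotine and at 2.94, 2.81 and 1.73 RPKM in paternal saline. Mmp9 reached the tested range only through the paternal nicotine livers and was called in 1 of 6 single omissions. B cell markers, 7 genes, summed to 1.23, 2.33 and 4.72 RPKM in paternal nicotine and to 2.28 to 2.88 RPKM in paternal saline; the part of either cell type in Cd24a was not tested. Cldn7, a claudin of epithelial junctions, was at 0.156, 0.203 and 0.332 RPKM in paternal nicotine and at 0.0903, 0.214 and 0.197 RPKM in paternal saline, on 23 to 96 reads per library.

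The duct keratins had a small share of the keratin transcripts. Krt19 was at 0.815, 1.15 and 3.01 RPKM in paternal nicotine and at 0.736, 1.36 and 0.909 RPKM in paternal saline. A single library, paternal nicotine replicate 3, held the high value: the log2 fold change was 0.33 with an interval of -0.44 to 1.11 (limma adjusted p = 0.553) and -0.01 without that library. Krt7 was at 0.284, 0.412 and 0.588 RPKM in paternal nicotine and at 0.135, 0.338 and 0.153 RPKM in paternal saline, on 78 to 385 reads per library. In limma voom on the reads with no filter on RPKM, a test added after the data had been seen, the log2 fold change was 1.10 for Krt7 (95% interval 0.09 to 2.11, adjusted p = 0.259) and 0.49 for Cldn7 (interval -0.64 to 1.62, adjusted p = 0.68). Neither passed; that test called 1.6% of all genes higher, and limma with no filter gave Krt7 an adjusted p of 0.42. In the same voom test Sox9 and Krt18 passed and Spp1 did not (adjusted p = 0.0515). Among the saline livers replicate 2 had the highest Krt19, Krt7, Epcam and Cldn7, and also the highest Sox9, Krt8 and Krt18. Spp1 and Cd24a were highest in saline replicate 3. Mesothelial cells of the liver capsule also make Krt7 and Krt19. The 7 mesothelial markers summed to 3.66, 6.95 and 7.07 RPKM in paternal nicotine and to 3.85, 6.39 and 3.75 RPKM in paternal saline. Replicate 2 was again highest among the saline livers, as it was for the hepatocyte keratins. No mesothelial marker was at 0 in every library. Of the 7, 2 were tested and neither passed, beside 9.28% called in either direction over all tested genes. The part of mesothelial cells in the duct keratin values was not tested.

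Krt8 and Krt18 were the keratins of these livers. Of 53 protein-coding keratin genes 13 had a read and 3 had a mean of at least 1 RPKM, namely Krt8, Krt18 and Krt19. Krt8 and Krt18 together held 97.96% to 99.55% of the summed keratin RPKM in each library. The other keratin genes, duct keratins included, summed to 1.73, 2.49 and 5.4 RPKM in paternal nicotine and to 2.22, 2.80 and 3.68 RPKM in paternal saline. Sox9, Krt8 and Krt18 each have 1 annotated transcript, while the other members have 3 to 7. For these 9 genes the deposited values divide by the summed length of all annotated transcripts, except for Epcam, whose divisor was a length found by search, so levels compare most directly among those 3.

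Krt18 (ENSMUSG00000023043, chromosome 15, 102028180 to 102032027, plus strand) rose. It was at 190.0, 194 and 226 RPKM in paternal nicotine replicates 1 to 3 and at 101, 117 and 79.4 RPKM in paternal saline replicates 1 to 3. The groups were well apart, and the log2 fold change was 1.04 with an SE of 0.16 (limma, adjusted p = 0.0174). Its hepatocyte partner Krt8 (ENSMUSG00000049382, chromosome 15, 101996698 to 102004482, minus strand) was at 189.7, 194 and 229 RPKM in paternal nicotine and at 143, 165 and 97.6 RPKM in paternal saline. These groups did not overlap either, but paternal saline livers were more spread, and the log2 fold change of 0.62 (SE 0.21, 95% interval 0.12 to 1.13) had a limma adjusted p of 0.124. Krt8 passed in none of 10 other settings (adjusted p between 0.0853 and 0.281). Of the 7 tested members 4 had groups that did not overlap, all higher in paternal nicotine, against 14.4% of all tested genes higher without overlap. Krt18 did not pass without paternal nicotine replicate 1 (adjusted p = 0.0557), paternal nicotine replicate 2 (adjusted p = 0.0674) or paternal saline replicate 1 (adjusted p = 0.0662), and its adjusted p ran between 0.0176 and 0.0675 over the 6 single omissions. Of the 9 hepatocyte markers above 3 fell, 0 rose and 6 did not pass, beside 5.39% lower and 3.89% higher over all tested genes. These 6 include Hnf4a, picked after its values had been seen, at 59.0 to 74.0 RPKM in paternal nicotine and 46.0 to 67.8 RPKM in paternal saline.

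The balance within the pair is given by a ratio that its test could not call at this number of libraries. The ratio of Krt8 to Krt18 was 0.998, 1.00 and 1.02 in paternal nicotine replicates 1 to 3 and 1.41, 1.40 and 1.23 in paternal saline replicates 1 to 3. It averaged 1.01 ± 0.00985 in paternal nicotine and 1.35 ± 0.104 in paternal saline (SD, n = 3 per group). The groups did not overlap, as was so for 33.6% of all tested genes in single-gene levels, and the two-sided exact permutation p was 0.1, the smallest that 3 against 3 libraries can give. Being formed within a library, the ratio does not depend on library scaling. Krt8 has a near-identical copy, Krt8-ps, with 98.6% identity over 941 bases, at 4.38 to 4.77 RPKM in paternal nicotine and 2.36 to 3.27 RPKM in paternal saline. With the copy's value added to Krt8 the ratio was 1.03 in paternal nicotine and 1.38 in paternal saline. The type II to type I ratio of the duct pair, Krt7 to Krt19, overlapped between groups, at 0.196 to 0.359 in paternal nicotine and 0.169 to 0.247 in paternal saline (two-sided exact permutation p = 0.2).

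**Figure D4:**
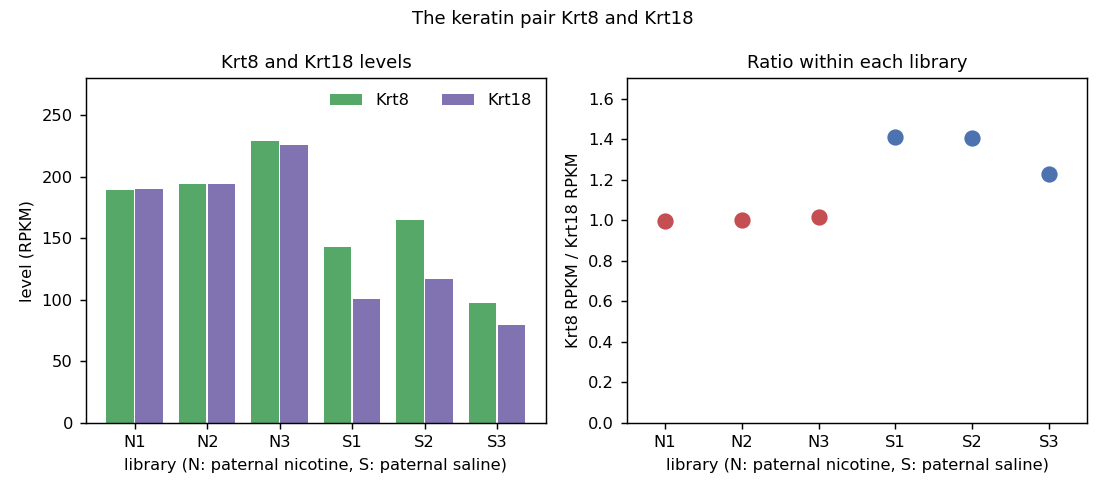
Left, levels of Krt8 (green) and Krt18 (purple) in RPKM in each library; right, the ratio of Krt8 to Krt18 within each library, paternal nicotine (N1 to N3) left of paternal saline (S1 to S3). The ratio is close to 1 in the 3 paternal nicotine livers and between 1.23 and 1.41 in the 3 paternal saline livers.

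Krt8 and Krt18 lie next to each other on chromosome 15, transcribed away from each other with 23697 bases and 0 annotated genes between them. The sequences upstream of these neighbours and of Spp1 are shown because Krt18 and Spp1 are the called members that RefSeq's promoter table (GRCm38.p6) covers and Krt8 is the neighbour and filament partner of Krt18. That table held 6 of the 9 members, and Sox9, Krt19 and Cd24a had no entry. Each stretch is given 5′ to 3′ on the strand of its gene, from 250 bases before the RefSeq start up to the earlier of the RefSeq and GENCODE starts, and capitals mark a TATAAA match.
Krt8 (chr15:102004483-102004592, minus strand): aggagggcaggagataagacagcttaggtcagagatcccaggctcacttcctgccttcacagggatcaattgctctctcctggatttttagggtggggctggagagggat
Krt18 (chr15:102027966-102028179, plus strand): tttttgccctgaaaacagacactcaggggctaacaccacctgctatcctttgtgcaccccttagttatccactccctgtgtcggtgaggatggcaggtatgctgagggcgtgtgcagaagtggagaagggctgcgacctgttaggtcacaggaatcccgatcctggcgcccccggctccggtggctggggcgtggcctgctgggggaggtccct
Spp1 (chr5:104434861-104435110, plus strand): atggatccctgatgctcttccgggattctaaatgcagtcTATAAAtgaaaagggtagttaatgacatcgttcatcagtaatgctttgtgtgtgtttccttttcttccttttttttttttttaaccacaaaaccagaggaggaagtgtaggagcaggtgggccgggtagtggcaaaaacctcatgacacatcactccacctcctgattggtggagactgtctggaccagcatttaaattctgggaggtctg

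Over the full windows of 300 bases (250 before to 50 after a start), both strands were searched for the AP-1 motif TGANTCA, the STAT motif TTCNNNGAA, the TEAD motif CATTCC, the TATA box TATAAA and an NF-kappaB motif. Of all 32851 windows in the table, 7.81% held the AP-1, 1.63% the NF-kappaB, 8.3% the STAT, 14.7% the TEAD and 13.6% the TATA letters. None of these motifs was in the Krt18 window, nor in those of Epcam and Krt7. Krt8 held TATAAA at the RefSeq start, on both strands with overlapping matches, in the part not printed here. Spp1 held TATAAA once, 211 bases before the start. Outside these, the first Cldn7 window held the TEAD and the second the STAT letters. A match is a description of the sequence only.

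Of 34 other bile duct genes 17 were tested: 2 rose, 1 fell and 14 did not pass, beside 3.89% higher and 5.39% lower over all tested genes, with a median log2 fold change of 0.05. Slc10a2, the apical bile acid carrier of duct cells and ileum, rose to 3.16 ± 0.545 RPKM in paternal nicotine, against 1.38 ± 0.220 RPKM in paternal saline (log2 fold change 0.80, SE 0.13; limma, adjusted p = 0.0208); over the 6 single omissions its adjusted p ran between 0.0237 and 0.0847, and it was called in 2. Lcn2, an acute phase gene that injured duct cells also make, rose to 196 ± 41.2 RPKM in paternal nicotine, against 1.95 ± 1.65 RPKM in paternal saline. Ambp, a plasma protein gene of hepatocytes, fell to 806 ± 171 RPKM in paternal nicotine, against 2589 ± 296 RPKM in paternal saline. Transport and secretion genes of the list ran from high to barely detected. The water channel gene Aqp1 was at 69.5 to 85.8 RPKM in paternal nicotine and 69.6 to 88.1 RPKM in paternal saline, and the anion exchanger gene Slc4a2 was at 2.37 to 2.95 RPKM in paternal nicotine and 2.33 to 2.82 RPKM in paternal saline. The secretin receptor gene Sctr reached at most 0.0819 RPKM and the chloride channel gene Cftr at most 0.00746 RPKM in any library. Of the 14 that did not pass, Cdh1 and Atp1b1 were lower and Clu was higher without overlap between the groups. Cdh1 averaged 3.24 ± 0.923 RPKM in paternal nicotine and 5.88 ± 1.43 RPKM in paternal saline. Atp1b1 averaged 7.62 ± 1.16 and 12.5 ± 1.78 RPKM, and Clu 114 ± 80.9 and 29.0 ± 0.604 RPKM. Clu was at 72.7, 207 and 62.0 RPKM in paternal nicotine replicates 1 to 3. Its high value was thus in the library with the pancreatic enzymes, whose part in it was not tested. Over all tested genes 19.2% were lower and 14.4% higher without overlap. Aqp1, Slc4a2, Sctr, Cftr, Cdh1, Atp1b1 and Clu were picked after their values had been seen.

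None of 16 tested genes of Notch and Hippo signalling, pathways that act upstream of Sox9 in duct fate, passed, of 31 listed. Over all tested genes 9.28% were called in either direction, and a list of 16 is too small to tell 0 from that share. In limma 0 of the 16 had an unadjusted p under 0.05, and limma voom on the reads also called 0. The median log2 fold change was 0.05. The Notch receptor gene Notch2 was at 3.63 to 3.67 RPKM in paternal nicotine and 2.61 to 3.68 RPKM in paternal saline, and the Hippo effector gene Yap1 was at 4.84 to 6.27 RPKM in paternal nicotine and 4.13 to 4.82 RPKM in paternal saline. Both were picked after their values had been seen.

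Keratin partners and desmosome genes numbered 28, of which 21 were tested: 3 rose, none fell and 18 did not pass, again beside 3.89% higher and 5.39% lower over all tested genes, with a median log2 fold change of -0.03. Hspb1, a small heat shock protein that binds intermediate filaments, rose to 44.0 ± 3.81 RPKM in paternal nicotine, against 18.0 ± 2.65 RPKM in paternal saline (higher by 1.252 in log2 units with an SE of 0.13, adjusted p = 0.00666 in limma). Krtcap2, which despite its name encodes a subunit of the N-glycosylation complex, rose to 14.8 ± 0.420 RPKM in paternal nicotine, against 8.23 ± 1.72 RPKM in paternal saline. It overlaps 239 exonic bases of Trim46, which reached at most 0.0762 RPKM. The nuclear lamin gene Lmna rose to 4.88 ± 0.494 RPKM in paternal nicotine, against 3.17 ± 0.388 RPKM in paternal saline (limma adjusted p = 0.0479), and was not called when any single library was left out. Without any 1 library other than paternal saline replicate 2, 1 of the 21 was called.

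Of 28 listed claudin and tight junction genes 27 were found in the tables by symbol and 16 were tested. Of these 3 rose, none fell and 13 did not pass, where 3.89% of all tested genes were higher and 5.39% lower, with a median log2 fold change of -0.09. Marveld3, a membrane protein gene of tight junctions, rose to 1.61 ± 0.136 RPKM in paternal nicotine, against 0.435 ± 0.136 RPKM in paternal saline; it reached the tested range only through the paternal nicotine livers. The adhesion molecule gene Jam2 rose to 2.68 ± 0.292 RPKM in paternal nicotine, against 1.38 ± 0.274 RPKM in paternal saline, and the claudin gene Cldn14 rose to 2.92 ± 0.473 RPKM in paternal nicotine, against 1.36 ± 0.419 RPKM in paternal saline (limma adjusted p = 0.0295 and 0.0436). Of the 16, none was called without paternal nicotine replicate 2, and 1 without paternal nicotine replicate 1, paternal saline replicate 1 or paternal saline replicate 3. Osteopontin receptors and proteases numbered 15, of which 7 were tested: 1 rose and 6 did not pass (3.89% of all tested genes were higher). It was Mmp9, a protease gene that is also in the neutrophil list, at 1.75 ± 0.761 RPKM in paternal nicotine and 0.376 ± 0.0991 RPKM in paternal saline, likewise tested only through the paternal nicotine livers; it was not called when any single library other than paternal nicotine replicate 1 was left out. None of 4 tested CD24 partner genes passed, of 7 listed, in limma or in limma voom on the reads (1 had an unadjusted p under 0.05 in limma). The share of all tested genes called in either direction in limma was 9.28%.

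**Figure D5:**
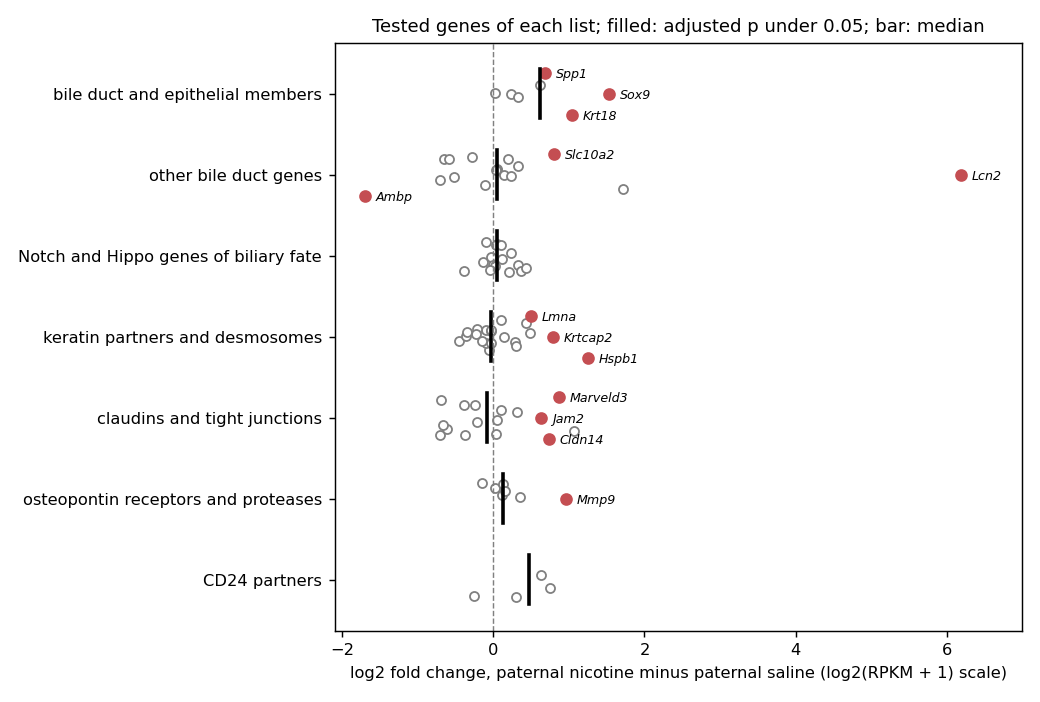
Difference of log2(RPKM + 1) between paternal nicotine and paternal saline (horizontal axis) for each tested gene of the member list and 6 related lists; filled red points passed an adjusted p of 0.05 and are named, open points did not pass, and black bars are list medians. The median of the 7 tested members is 0.62, and those of the other lists lie between -0.09 and 0.47.

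The genes with the most similar patterns were found by the root mean square distance between centred log2(RPKM + 1) profiles over the 6 libraries, among all tested genes. Nearest to Sox9 were the fibrinogen genes Fgg (distance 0.13) and Fgb (0.18) and the serpin gene Serpina3m (0.19). Fgg was at 3901 to 5677 RPKM in paternal nicotine and 1109 to 2183 RPKM in paternal saline, with its lowest value in the third replicate of each group, as for Sox9. Serpina3m, which shares 60 exonic bases with its paralog Serpina3k, did not pass. Nearest to Krt18 were Sec61b (0.06), Tmed9 (0.07) and Slc35b1 (0.08). Sec61b, a subunit gene of the protein translocation channel of the endoplasmic reticulum, was at 65.8 to 71.2 RPKM in paternal nicotine and 27.8 to 40.8 RPKM in paternal saline. Nearest to Spp1 were Efhd2 (0.06), Tgfbi (0.07) and 1810058I24Rik (0.08), of which Tgfbi did not pass. With 6 libraries in 2 groups, many genes that differ between the groups have similar profiles, so these distances are descriptions.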

How the data were processed

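Total liver RNA was extracted with Trizol and made into libraries with an Illumina TruSeq DNA kit, per the labels' protocols. No source used here says whether strand was kept. The authors deposited 1 table of RPKM values per library, per the file headers. CASAVA, TopHat and the build mm8 appear, with no version, in the submitters' processing notes. The counting tool and annotation: not given in the sources used here.

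Values under 1e-06 RPKM, placeholders for no read, were set to 0. Symbols and coordinates came from GENCODE M21 (GRCm38), which matched 99.93% of the identifiers. Placeholders gave each library's total reads, and with summed transcript lengths all 25531 genes with a read gave whole reads within 0.01, for 1200 of them after a search for the length. The members were chosen, and the lists and tests written, with earlier results of these data known. limma 3.58.1 (R 4.3.3) was run with trend and robust on log2(RPKM + 1), a scale on which changes of low genes come out smaller; the groups came from the labels. Named genes were the 9 members, up to 4 called genes of lowest p per list, keratins with a mean of at least 1 RPKM and the 3 nearest profiles of each called member; others are marked in the text. On simulated data for this comparison, changes were set in RPKM + 1, which is a larger change in RPKM for low genes. Of 50 genes changed 2-fold 31 were recovered, and of 50 changed 1.5-fold 13, among 8773 with 5 false calls. Overlaps of at least 50 exonic bases were found with bedtools 2.31.1 and copies of at least 200 bases at 95% identity with blastn 2.17.0. Permutation tests used scipy 1.17.1 and figures matplotlib 3.10.9. A further motif that was searched is not reported here.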

Additional observations from a re-analysis of the deposited data

How the results depend on the processing

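Over all genes, 341 were called higher and 473 lower in paternal nicotine. Other pseudocounts, limma voom on the reads, a mean of at least 5 RPKM, plain limma (neither trend nor robust) and 2 other scalings (median ratio, quantile) stayed within 1.5 times of both counts; the scalings moved the median log2 fold change of all genes by less than 0.1. With no filter on low values, which raised the genes tested to 25531, 184 were higher and 183 lower, and 0 of 9 members were called: Sox9 was at adjusted p = 0.0543, Krt18 at 0.055 and Spp1 at 0.109. With the replicate number as a block in limma, 185 were higher and 198 lower and Krt18 was at adjusted p = 0.0607. The labels do not say that the numbers pair the mice. Same-numbered libraries deviated together with correlations of 0.007, 0.056 and 0.049, and differently numbered ones with correlations between -0.108 and 0.049. These values do not settle whether the numbers mark a pairing. Leaving out 1 library gave 90 to 299 higher, 92 to 400 lower and 0 to 2 members called, with fewer samples in each fit. The log2 fold changes of Sox9, Spp1, Krt8, Krt18 and Cd24a kept their sign in every setting. That of Epcam was -0.0089 with quantile normalization and between -0.10 and 0.14 with 1 library left out, and that of Krt19 was -0.0085 without paternal nicotine replicate 3 and at most 0.56 with another library left out. The mean ratio of Krt8 to Krt18 stayed between 1.00 and 1.01 in paternal nicotine and between 1.32 and 1.41 in paternal saline with 1 library left out, and was 1.03 in paternal nicotine with the copy added. Of the 10 other called list genes, Ambp, Lcn2 and Hspb1 were called in every setting. Krt7 and Cldn7 stood on few reads, and the part of depth in their missing calls was not tested.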

Other observations

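Low epithelial genes outside the tested range, picked after their values had been seen, gave further values. Elf3, an epithelial transcription factor gene, was at 0.721, 0.683 and 0.916 RPKM in paternal nicotine and at 0.0857, 0.132 and 0.189 RPKM in paternal saline, on 192 to 291 reads and 24 to 55 reads. In limma voom on the reads with no filter on RPKM, which called 1.6% of 21123 genes higher in paternal nicotine, its log2 fold change was 2.56 (SE 0.37, adjusted p = 0.0162). Mmp7, a protease gene of injured duct epithelium, was at 0.784, 1.07 and 1.10 RPKM in paternal nicotine and at 0.212, 0.713 and 0 RPKM in paternal saline (adjusted p = 0.262 in limma voom). Krt23 was at 0.453, 0.515 and 0.893 RPKM in paternal nicotine and at 1.14, 0.687 and 1.33 RPKM in paternal saline (adjusted p = 0.43 in limma voom).

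Single libraries held most of the reads of some epithelial genes. Krt14, a keratin of stratified epithelium, had 84 reads in paternal nicotine replicate 3 and at most 5 in any other library. Krt10, another such keratin, had 180 reads in paternal saline replicate 3 and at most 51 elsewhere. Dmbt1, listed here with the bile duct genes, had 2843 reads in paternal nicotine replicate 2, the library with the pancreatic enzymes, and at most 18 in any other.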
